A study of Zea mays with 4 samples.

Results

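The most abundant transcripts of the maize leaf elongation zone were selected on their level, as the loci whose FPKM (fragments per unit of transcript length and per unit of library size) reached 500 or more in the lowest of 4 libraries. The levels thus chose the loci, and are given as a description. Of 30378 loci, 65 met this limit and carried a gene model name, which is 0.214% of the loci. RNA came from the elongation zone of leaf 6 of the inbred line B73 grown in hydroculture, with 2 libraries from plants given 4 mM nitrogen (HN1 and HN2) and 2 from plants given 0.04 mM nitrogen (LN1 and LN2). B73 is the line of the maize reference genome, both groups share line, tissue and culture, and the age of the plants is not stated. The source label of the HN samples gives the dose in nM and their description in mM, and the mM value is used here. Whether the 2 libraries of a group derive from different plants is not stated in the labels. The p-values therefore reflect spread between libraries, partly pooled over loci, and this spread may be technical. Because both HN columns bore the same name, HN1 is the first and HN2 the second of them, and neither is paired with LN1 or LN2.

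The elongation zone lies just above the dividing cells at the base of a growing grass leaf, and its cells lengthen many times over before they mature. Water enters these cells through aquaporins, microtubules built from alpha- and beta-tubulin guide the laying down of cellulose, and imported sucrose is cleaved to feed wall synthesis and respiration. Chloroplasts mature as cells leave the zone, and transcripts for light-harvesting proteins are most abundant further up the blade.

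The deposited levels differed in scale between libraries. Total FPKM was 814307 and 1113329 in HN1 and HN2 but 666397 and 710263 in LN1 and LN2, while relative depth, estimated from the lowest FPKM values with LN1 set to 100%, was 76.8% in HN1, 65.1% in HN2 and 90.8% in LN2. Absolute depth is unknown. Both HN libraries thus had the higher totals and the lower depth, and depth and nitrogen supply cannot be told apart. Elongation zone genes were present, with all 13 tubulin loci and 10 of 12 expansin loci reaching 1 FPKM in 2 or more libraries, and the meristem gene kn1 did not exceed 0.0715 FPKM in any library. Genes of neighbouring zones reached this level too, at all 26 core histone and 11 of 13 MCM and cyclin loci of dividing cells. So did 10 of 12 photosynthesis loci of the mature blade, and these counts do not separate the zones. In whole tissue, fewer cells of a type and less RNA per cell cannot be told apart.

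The 65 abundant loci spanned mean levels from 593 to 17191 FPKM, with a median of 1197. The distribution was steep, since 16 loci had a mean over 2000 FPKM, 25 lay between 1000 and 2000, and 24 were below 1000. A name was found for 28 of them, and the other 37 are given by gene model ID. Some of the 37 still match a reference gene entry. Among the named loci, tubulin and actin had 6, sucrose use and glycolysis 4 and aquaporins 4, beside fewer glycine-rich or proline-rich, lipid transfer, chaperone, redox, ubiquitin and photosynthesis genes. No ribosomal protein, histone or translation factor of the symbol lists was among the 65, although those lists had 52, 28 and 9 tested loci. However, none of the 37 unnamed abundant loci, and no abundant locus holding several genes, was placed in any list. Genes of these kinds may therefore be among the 65.

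Together the 65 loci held a similar share of total FPKM in every library: 16.2% and 16.7% in HN1 and HN2, and 16.0% and 17.7% in LN1 and LN2. The LN values lay on either side of both HN values, and with 2 libraries against 2 an exact permutation test cannot go below a two-sided p of 0.33. A share of total FPKM is a share of transcripts as far as the scaling by length holds, not of reads. Over all loci, the 65 included, the concentration did differ: 653 loci made up 50% of the total in HN1 and 490 in HN2, against 946 in LN1 and 825 in LN2. Named loci at 500 FPKM or more, the 65 included, numbered 177 and 378 in HN1 and HN2 but 85 and 93 in LN1 and LN2. These counts at a fixed limit also depend on the scale of each library.

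**Figure D1:**
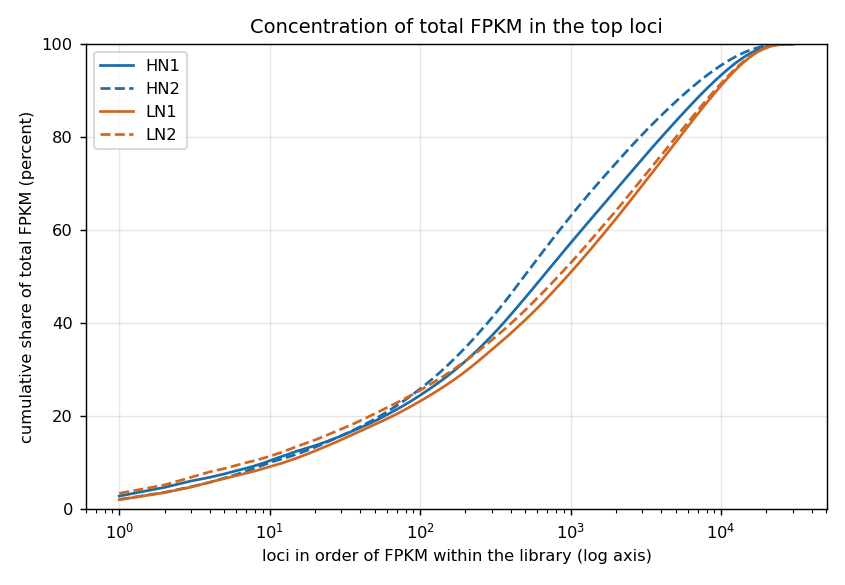
Cumulative share of total FPKM (percent, vertical axis) against the number of loci taken in order of FPKM within each library (log axis), 1 line per library. The 4 lines run close together over the first loci and part beyond about 100 loci, where both HN lines climb faster, reaching 50% at 653 and 490 loci against 946 and 825 in LN.

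Much of the share rested on a few loci. The 10 with the highest mean held 9.20%, 8.08%, 7.20% and 9.39% of total FPKM in HN1, HN2, LN1 and LN2, and the first 2 alone held 4.17%, 3.60%, 3.54% and 5.19%. The other 55 loci held 7.0%, 8.58%, 8.77% and 8.31%. Both leading loci are very short, and FPKM divides by length, so their values depend heavily on the length assigned to them. AC216353.2_FG005 spans 280 bp (chromosome 5, 210643292 to 210643571, B73 RefGen_v3) and AC195331.3_FG008 spans 187 bp (chromosome 3, 218853867 to 218854053). They were the only abundant loci under 300 bp, which is 3.08% of the 65 against 0.909% of all loci. Without them the remaining 63 held 12.0%, 13.1%, 12.4% and 12.5%, again a similar share in every library.

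AC216353.2_FG005, without a gene name, had 22803 and 22967 FPKM in HN1 and HN2 and 10128 and 12866 in LN1 and LN2. It ranked first among the abundant loci in both HN libraries and second in both LN libraries. AC195331.3_FG008, also unnamed, had 11144, 17083, 13475 and 24028 FPKM in HN1, HN2, LN1 and LN2, so that the groups overlapped, and it ranked first in both LN libraries. GRMZM2G364252 was the third with 15249, 10452, 7111 and 11643 FPKM, again with overlap. The next unnamed loci were GRMZM2G064096, at 3150, 6659, 3173 and 3188 FPKM, and GRMZM2G020785, at 5584, 3642, 1708 and 2798. HN2 stood apart for the former, and both HN values were above both LN values for the latter. The 37 unnamed loci together held 11.5%, 10.8%, 11.1% and 13.0% of total FPKM, more than the 28 named ones with 4.75%, 5.88%, 4.90% and 4.70%.

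**Figure D2:**
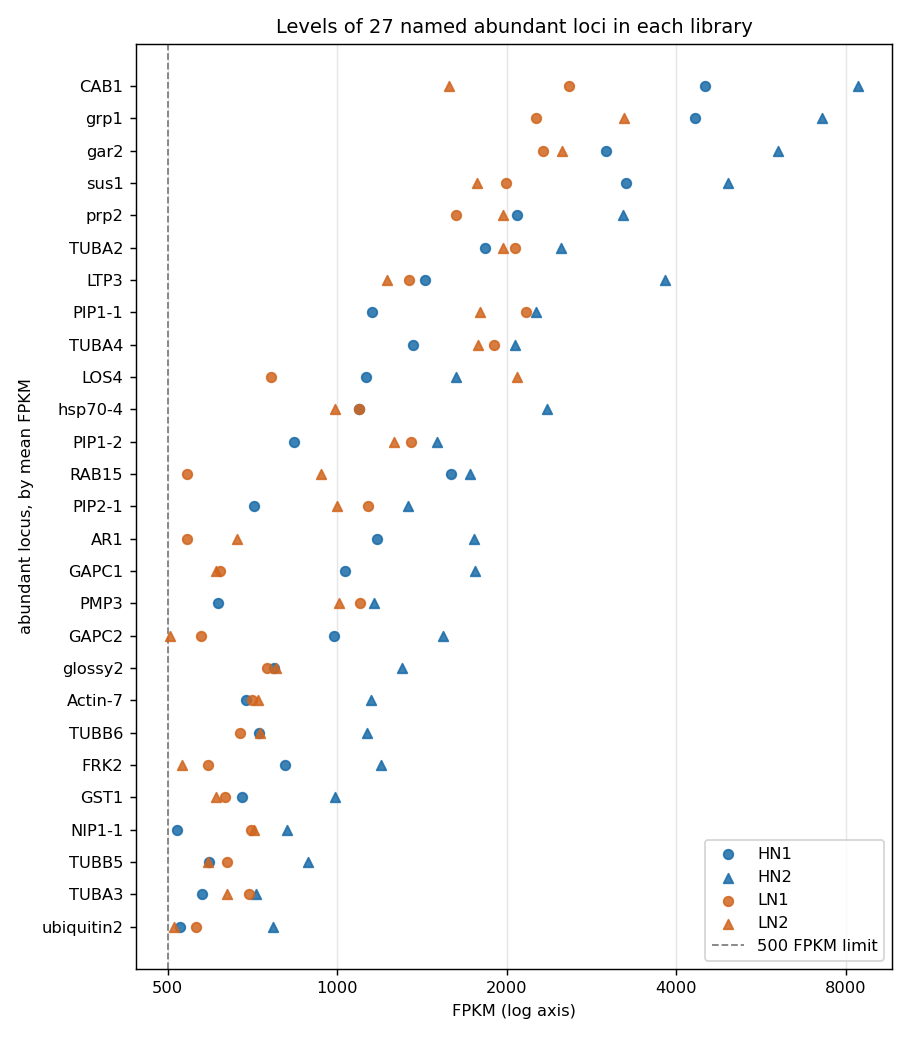
FPKM (log axis) of 27 of the 28 named abundant loci in each library, ordered by mean level; blue marks HN, orange LN, circles the first and triangles the second library, and the dashed line the 500 FPKM limit. HN2 is the rightmost point for most loci, and for most the LN points lie near each other. Both LN points lie left of both HN points for CAB1, sus1, GAPC1, GAPC2, FRK2 and RAB15. The same holds for grp1, prp2, gar2, LTP3, GST1 and AR1, and for 29.9% of all tested loci.

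The libraries of the HN pair differed in scale among these loci. HN2 exceeded HN1 in 62 of the 65, with a median ratio of 1.68 and a range from 0.473 to 3.26, whereas over all 22489 tested loci the median ratio was 1.06. As shares of total FPKM the median ratio of the abundant loci was 1.23. The LN pair had a median ratio of LN2 to LN1 of 0.984, a range from 0.612 to 2.74, and the higher value in LN2 for 32 of the 65. This spread enters every test of LN against HN below.

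LN was tested against HN with limma-trend on log2(FPKM + 1) over 22489 loci that reached 1 FPKM in 2 or more libraries, with Benjamini-Hochberg adjustment over all of them and a threshold of 0.05. None of the 65 abundant loci passed, against 4.98% of all tested loci (1.18% higher in LN and 3.8% lower). Without adjustment, 1 abundant locus was higher in LN and 6 were lower at p under 0.05, where 15.9% and 16.4% of all tested loci were. The smallest adjusted p from limma was 0.0946. limma pulls the variance of each locus toward that of loci at a similar level, with 3.48 prior against 2 residual degrees of freedom. The SE of an abundant locus is thus not the spread of its own libraries alone. In the authors' deposited table, 21 of the 65 had a q-value under 0.05 and a lower level in LN and 0 a higher one, beside 13.6% and 5.76% of the tested loci. The rule bounds these counts, since a locus that dropped below 500 FPKM in any library could not be a member. The limma estimates also depended on the HN libraries, and the median change without each of them is given below. With 1 HN library left, no spread between HN libraries remains, so calls of those fits are not given.

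The median log2 change of the abundant loci was -0.39, beside 0.07 for all tested loci, and 51 of the 65 lay below the latter. When each library was rescaled to 1000000 FPKM, the median of all tested loci moved by 0.41 to 0.48 and that of the abundant loci became 0.08, with 50 below the median of all. With quantile normalization the median of the abundant loci was 0.31 and that of all tested loci 0.05. Without HN1 the median of the abundant loci was -0.69, and without HN2 it was 0.01. The sign of the typical change of an abundant locus therefore depended on the scaling and on 1 HN library. In FPKM, both LN values lay below both HN values for 26 of the 65 loci and above them for 4, beside 29.9% and 36.6% of all tested loci. As shares of total FPKM, 19 lay below and 25 above, beside 16.1% and 59% of all tested loci.

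Sucrose use and glycolysis had 4 abundant members, and each had both LN values below both HN values. sus1, a sucrose synthase that splits sucrose into fructose and UDP-glucose, had 3250 and 4948 FPKM in HN1 and HN2 and 1996 and 1773 in LN1 and LN2 (chromosome 9, 122479051 to 122485725). FRK2, a fructokinase that phosphorylates the fructose released, had 807 and 1197 in HN against 589 and 530 in LN. The groups did not overlap for either gene, and the log2 change was -1.09 (SE 0.76, limma adjusted p = 0.356) for sus1 and -0.81 (SE 0.44, limma adjusted p = 0.257) for FRK2, so neither passed.

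GAPC1 and GAPC2 encode the cytosolic glyceraldehyde-3-phosphate dehydrogenase of glycolysis. GAPC1 (chromosome 4, 36910204 to 36917844) had 1033 and 1756 FPKM in HN against 619 and 609 in LN, and GAPC2 (chromosome 6, 6901482 to 6906034) had 988 and 1538 in HN against 573 and 505 in LN. The LN values of both were close to each other and below either HN value, with log2 changes of -1.13 (SE 0.50, limma adjusted p = 0.183) and -1.19 (SE 0.47, limma adjusted p = 0.149). GAPC2 moved from ranks 62 and 65 over all loci in HN to 92 and 122 in LN. Near-identical gene copies can share reads, so the split between GAPC1 and GAPC2, as between tubulins or between aquaporins, is uncertain. Their ratio was 1.05, 1.14, 1.08 and 1.20 in HN1, HN2, LN1 and LN2, which overlapped between groups. Over the whole list of 17 tested loci, 1 passed as lower and 0 as higher, where 3.8% and 1.18% of all tested loci did, with a median log2 change of -0.81 (-0.35 after rescaling to 1000000), beside 0.07 (0.48) for all tested loci. The locus that passed was GRMZM2G176307, not an abundant one, with 219 and 352 FPKM in HN against 73.5 and 75.6 in LN. The 4 abundant members held 70.0%, 68.8%, 70.3% and 68.6% of the list's FPKM in HN1, HN2, LN1 and LN2.

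CAB1, a chlorophyll a/b-binding protein of the light-harvesting antenna, was the most abundant named locus (chromosome 7, 147094051 to 147095217). It had 4500 and 8409 FPKM in HN1 and HN2 and 2577 and 1578 in LN1 and LN2. Both LN values lay below both HN values, but each pair spread widely, and the log2 change of -1.61 (SE 0.90) did not pass (limma adjusted p = 0.265). CAB1 held 0.553% and 0.755% of total FPKM in HN and 0.387% and 0.222% in LN. It made up 40.5%, 43.2%, 43.5% and 43.6% of the FPKM of its photosynthesis list, so its share of the list was nearly even across libraries. Of that list's 24 tested loci, 5 passed as lower in LN and 0 as higher, beside 3.8% and 1.18% of all tested loci, RBCS among them (252 and 295 FPKM in HN against 51.7 and 47.6 in LN), with a median log2 change of -1.59 (-1.13 after rescaling). A partly overlapping list of 12 genes of the mature blade, CAB1 included, had 10 loci at 1 FPKM or more and a summed level of 8002 and 14535 FPKM in HN against 4404 and 2462 in LN. CAB1 itself made up most of this sum in every library, so the sum largely repeats its level. The part of mature blade tissue in the level of CAB1 was not tested.

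The cytoskeleton had 6 abundant members, which are 3 alpha-tubulins, 2 beta-tubulins and 1 actin. TUBA2, an alpha-tubulin and the highest of them, had 1831 and 2493 FPKM in HN1 and HN2 and 2070 and 1970 in LN1 and LN2. TUBA4 had 1360, 2069, 1899 and 1778, and TUBA3 had 575, 718, 696 and 637. In all 3 alpha-tubulins the LN values lay between the HN values. The beta-tubulin TUBB6 had 726, 1131, 671 and 730 FPKM, and TUBB5 had 592, 889, 637 and 589. Actin-7, the actin locus, had 688, 1149, 705 and 724. All 6 overlapped between groups, and HN2 was the highest library for each. For TUBA2 the log2 change was -0.08 (SE 0.66, limma adjusted p = 0.943), and it was 0.39 after rescaling to 1000000. None of the list's 27 tested loci passed in either direction, beside 4.98% of all tested loci. Without adjustment 1 was lower and 0 higher at p under 0.05, beside 16.4% and 15.9%. The list's median log2 change was -0.08 (0.30 after rescaling, -0.30 without HN1 and 0.12 without HN2). Within libraries, the 5 alpha-tubulin loci summed to 2.38 and 2.17 times the 8 beta-tubulin loci in HN1 and HN2 and to 2.85 and 2.73 times in LN1 and LN2. This ratio does not depend on the scale of a library, and both LN values were higher.

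The 4 abundant aquaporins were 3 plasma membrane intrinsic proteins, which form water channels in the plasma membrane, and 1 NIP, of a related channel family. PIP1-1 had 1152 and 2251 FPKM in HN against 2167 and 1794 in LN, and PIP1-2 had 839 and 1504 in HN against 1354 and 1259 in LN. PIP2-1 had 713, 1334, 1136 and 998, and NIP1-1 had 520, 814, 701 and 712. In each, HN1 was the lowest and HN2 the highest library, with LN between them. The log2 changes ran from 0.12 (NIP1-1, SE 0.44, limma adjusted p = 0.870) to 0.29 (PIP1-1, SE 0.67, limma adjusted p = 0.789), and all 4 turned negative without HN1. Of the 18 tested aquaporins of the symbol list 0 passed, beside 4.98% of all tested loci. None was past an unadjusted p of 0.05 in limma, beside 15.9% higher and 16.4% lower. The list's median log2 change was 0.11 (0.55 after rescaling), and it became -0.26 without HN1 and 0.56 without HN2. The 4 abundant members made up 80.7%, 79.9%, 81.1% and 80.8% of the list's FPKM in HN1, HN2, LN1 and LN2. Aquaporin genes outside the list are not counted.

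Ratios between these groups within a library are free of its scale. The summed FPKM of the 6 cytoskeleton members was 0.950 and 0.895 times that of the 4 sucrose and glycolysis members in HN1 and HN2, and 1.77 and 1.88 times in LN1 and LN2. The summed aquaporins were 0.530 and 0.625 times the sucrose and glycolysis members in HN and 1.42 and 1.39 times in LN. CAB1 was 2.46 and 3.37 times TUBA2 in HN and 1.2 and 0.801 times in LN. In all 3 ratios the groups did not overlap and the gap between groups exceeded the gap within either pair. These ratios were chosen with the levels known and are given without a test.

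**Figure D3:**
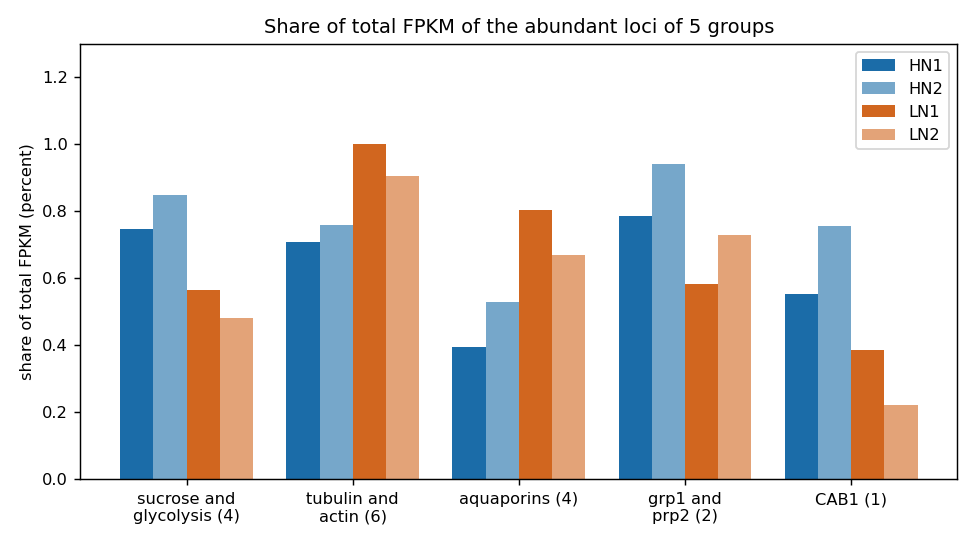
Share of total FPKM (percent) held by the abundant loci of 5 groups, with the number of loci in parentheses and 1 bar per library. Cytoskeleton and aquaporin bars are higher in both LN libraries (1.0% and 0.905%, 0.804% and 0.671%) than in both HN libraries (0.709% and 0.759%, 0.396% and 0.530%). Those of sucrose and glycolysis (0.567% and 0.481% against 0.746% and 0.848%) and of CAB1 are lower. As shares, 59% of all tested loci were likewise higher in both LN libraries and 16.1% lower. With library totals made equal, the median log2 change of the cytoskeleton members (0.31) was below that of all tested loci (0.48). That of the aquaporin members (0.64) was above it.

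grp1 and prp2 encode a glycine-rich and a proline-rich protein, names that cover wall proteins as well as, for glycine-rich proteins, RNA-binding ones, and which kind is meant here was not analysed. grp1 had 4312 and 7249 FPKM in HN1 and HN2 and 2258 and 3225 in LN1 and LN2, and prp2 had 2084, 3219, 1623 and 1968. For both, both LN values were below both HN values, as for 29.9% of all tested loci. Neither passed (log2 changes -1.05 and -0.54, limma adjusted p = 0.456 and 0.616). The other cell wall genes of the symbol list, expansins and cellulose synthases among them, were far less abundant, and of its 26 tested loci 1 passed as higher and 0 as lower, where 1.18% and 3.8% of all tested loci did, with a median log2 change of 0.27 (0.72 after rescaling). The locus that passed was GRMZM2G142898, with 6.5 and 5.34 FPKM in HN against 14.5 and 15.3 in LN. grp1 and prp2 made up 82.2% and 86.0% of the list's FPKM in HN and 69.6% and 74.9% in LN.

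**Figure D4:**
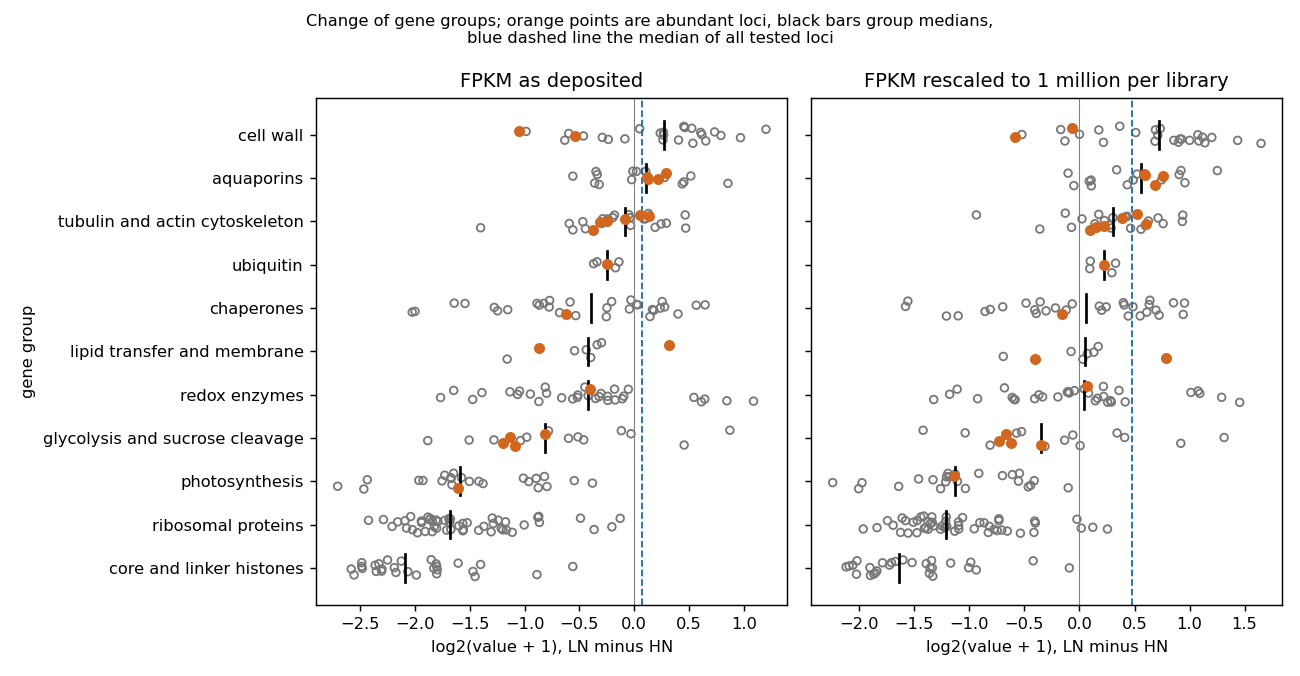
Change from HN to LN in log2(value + 1) (horizontal axis) of the tested loci of 11 gene groups, for FPKM as deposited (left) and rescaled to 1000000 per library (right); filled orange points are abundant loci, black bars group medians and the dashed line the median of all tested loci (0.07 and 0.48). The abundant sucrose and glycolysis members and CAB1 lie left of the dashed line in both panels, and the 4 abundant aquaporins lie right of it. The listed ribosomal proteins and histones, none of which was an abundant locus, have medians far to the left.

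Other named loci carry roles in membranes, the cuticle and protein upkeep. LTP3, a lipid transfer protein, had 1431 and 3826 FPKM in HN1 and HN2 and 1341 and 1223 in LN1 and LN2, with HN2 far above the rest. PMP3, a small membrane protein, had 613, 1164, 1096 and 1008, the order seen in the aquaporins, with HN1 lowest and HN2 highest. glossy2, which acts in the making of cuticular wax, had 773, 1301, 749 and 778. The chaperone hsp70-4 had 1091, 2358, 1093 and 990. For both glossy2 and hsp70-4, HN2 stood apart and the other libraries lay close together. GST1, a glutathione S-transferase, had 679, 990, 632 and 610, and ubiquitin2, the marker of proteins for degradation, had 526, 770, 562 and 514. LOS4, in Arabidopsis a DEAD-box RNA helicase, had 1126, 1625, 763 and 2087 FPKM, with LN holding both the lowest and the highest library.

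gar2 had 2997, 6063, 2321 and 2509 FPKM in HN1, HN2, LN1 and LN2. RAB15 had 1590 and 1721 in HN against 541 and 936 in LN, 1 of few loci at which both HN libraries lay close together, and its log2 change was -1.22 (SE 0.53, limma adjusted p = 0.182). The locus that holds AR1, an aldose reductase gene, had 1175, 1751, 540 and 663 FPKM. It also holds another gene and spans 236877 bp, so its level cannot be assigned to AR1 alone. Several genes shared a locus in 5 cases, and 3 loci spanned more than 100000 bp.

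Ranks are free of a library's scale, but the limit was stricter in LN, where fewer loci reached 500 FPKM: the lowest-ranked abundant locus stood at rank 196 in HN1 and 322 in HN2, against 109 in LN1 and 123 in LN2. Movement up over all loci is therefore partly built in by the rule. Over all loci, both LN ranks were better than both HN ranks for 34 abundant loci and worse for 16, beside 35.9% and 30.5% of all tested loci. Among the 65 alone, 27 moved up, 23 moved down and 15 overlapped. The median mean rank over all loci was 57.5 in HN and 46 in LN. Of the 100 most abundant named loci, HN1 and HN2 shared 86 and LN1 and LN2 shared 90, while an HN and an LN library shared between 59 and 62. The top of the list was thus more alike within than between groups in each of the pairs.

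**Figure D5:**
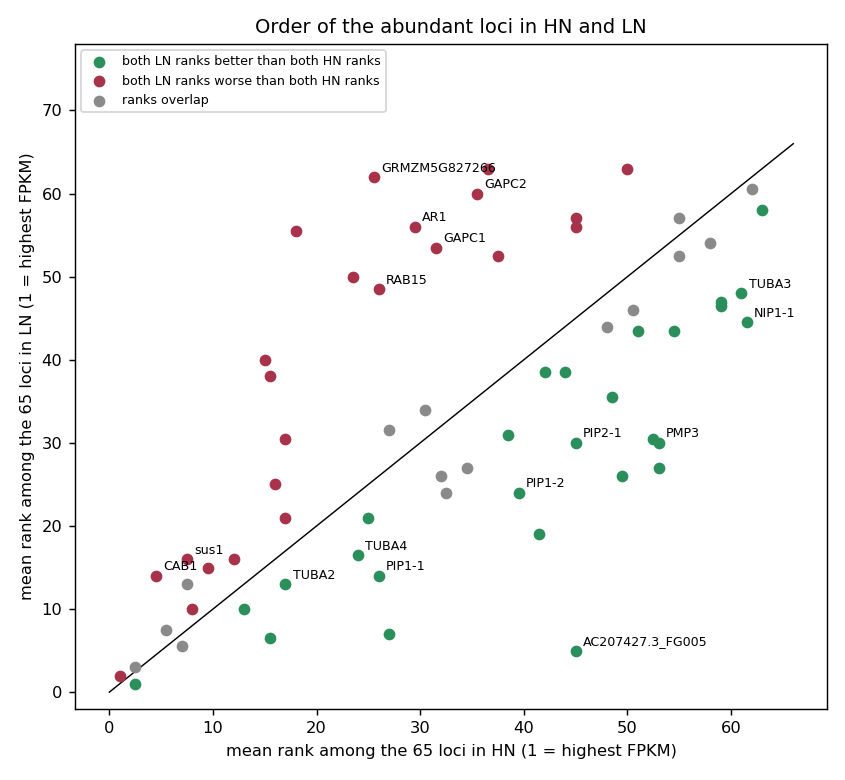
Mean rank among the 65 abundant loci in LN (vertical axis) against HN (horizontal axis), 1 point per locus and rank 1 the highest FPKM; colours show whether both LN ranks were better or worse than both HN ranks. CAB1, sus1, GAPC1, GAPC2 and RAB15 lie above the line of equal rank, and TUBA2, TUBA3, TUBA4 and the 4 aquaporins lie below it.

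Among the 65, sus1 went from ranks 7 and 8 in HN1 and HN2 to 14 and 18 in LN1 and LN2, CAB1 from 5 and 4 to 8 and 20, GAPC1 from 33 and 30 to 52 and 55, and FRK2 from 42 and 48 to 53 and 61. PIP1-1 went from 29 and 23 to 12 and 16, PIP1-2 from 40 and 39 to 23 and 25, TUBA4 from 23 and 25 to 16 and 17, and NIP1-1 from 62 and 61 to 44 and 45. All 4 sucrose and glycolysis members moved down, all 4 aquaporins, the 3 alpha-tubulins and Actin-7 moved up, and both beta-tubulins overlapped. Of all 65, 23 moved down and 27 up in this order. In the ranking over all loci, FRK2 instead overlapped (88 and 102 in HN, 88 and 109 in LN). Both beta-tubulins moved up there, TUBB6 from 106 and 116 to 74 and 70 and TUBB5 from 148 and 177 to 80 and 96.

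The largest moves down over all loci belonged mostly to unnamed genes. The locus GRMZM2G001327, which holds 3 genes over 179952 bp, went from ranks 27 and 25 in HN to 91 in both LN libraries, with 1611 and 2943 FPKM in HN against 574 and 608 in LN. Its log2 change of -1.88 (SE 0.55) had the smallest adjusted p of the 65 (limma adjusted p = 0.0946). GRMZM5G827266 went from rank 40 in both HN libraries to 109 and 97, with 1269, 1994, 507 and 589 FPKM. GRMZM2G015295 (1833, 3086, 741 and 770 FPKM) and GRMZM2G071450 (1809, 3217, 778 and 764 FPKM) dropped from ranks 21 to 24 to ranks 56 to 66. In these 4 loci the LN values were within 100 FPKM of each other and all below the HN values. The AR1 locus (47 and 49 to 104 and 79), GAPC2, GRMZM2G024099 (91 and 46 to 107 and 114) and GRMZM2G050774 (46 and 29 to 71 and 86) completed the 8 largest moves, and RAB15 (28 and 53 to 103 and 55) moved by as many ranks as GRMZM2G071450.

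The largest move up was that of AC207427.3_FG005, an unnamed locus of 556 bp on chromosome 3 (199004702 to 199005257), from ranks 41 and 322 in HN to 6 and 11 in LN. It had 1260 and 596 FPKM in HN1 and HN2 and 4176 and 3135 in LN1 and LN2, and its log2 change of 2.06 (SE 0.69) did not pass (limma adjusted p = 0.116). Unlike most of the 65, its HN2 level was below its HN1 level. The other large moves up were TUBA3 (158 and 247 to 70 and 82), NIP1-1 (189 and 199 to 67 and 73), GRMZM2G360339 (195 and 219 to 95 and 92), ubiquitin2 (186 and 223 to 94 and 115), GRMZM2G137864 (196 and 56 to 34 and 39), GRMZM2G017991 (180 and 143 to 72 and 74) and GRMZM2G398807 (151 and 103 to 36 and 43). Most of these stood low in the HN order, where the limit left room only to move up.

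Besides AC207427.3_FG005, 3 loci had both LN FPKM values above both HN values. GRMZM5G889776 had 1933 and 2468 in HN against 3238 and 3055 in LN, GRMZM2G009465 had 1516 and 1689 in HN against 2736 and 3069 in LN, and GRMZM2G042181 had 870 and 1283 in HN against 1592 and 1720 in LN. None of the 3 passed in limma with FPKM as deposited. After rescaling to 1000000 per library, limma called 3 abundant loci higher and 4 lower, beside 4.36% and 3.28% of all tested loci. The higher ones were AC207427.3_FG005, GRMZM2G009465 (log2 change 1.33) and GRMZM2G042181 (1.11), and the lower ones GRMZM2G001327 (-1.41), GRMZM2G015295 (-1.19), GRMZM2G071450 (-1.18) and GRMZM5G827266 (-1.07). After quantile normalization limma called 10 higher and 4 lower, beside 4.32% and 7.78% of all tested loci, and these included all of the 7 but AC207427.3_FG005. The further calls were all higher, among them PIP1-2, NIP1-1, TUBA3 and PMP3.

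The limit itself fell in a dense range of levels. Just inside it, the lowest library stood at 500.2 FPKM for AC199526.5_FG002, 505 for GAPC2, 507 for GRMZM5G827266 and 509 for both GRMZM2G137864 and GRMZM2G360339. Just outside were GRMZM2G088511 with 497, the locus of TCTP with 495, GRMZM2G305280 with 493, GRMZM2G031545 with 490 and the profilin PRO5 with 486. GRMZM2G137864 and GRMZM2G305280 match the same reference gene entry although they lie on chromosomes 2 and 7, so that reads may be shared between them.

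The limit also left out loci that were abundant in HN alone. Both HN libraries had 500 FPKM or more for 175 named loci and both LN libraries for 79, and the 65 shared loci were 37.1% of the former and 82.3% of the latter. The 110 loci past the limit in HN alone included 13 ribosomal proteins, 5 photosynthesis genes, 2 histones and 2 genes of sucrose use and glycolysis, and no cytoskeleton, aquaporin or cell wall gene of the lists. The 14 past it in LN alone included 1 alpha-tubulin and no gene of the other groups just named. After rescaling to 1000000 the sets were 247 and 158 with 120 shared, which are 48.6% and 75.9%, and all 65 loci were among the 120.

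Histones and ribosomal proteins of the symbol lists differed between the libraries beside the abundant loci. The 26 core histone loci, a mark of dividing cells and all at 1 FPKM or more, summed to 5718 and 10943 FPKM in HN against 1965 and 1752 in LN, whereas 13 MCM and cyclin loci summed to between 128 and 162 in the 4 libraries, without such a difference. The 54 ribosomal protein loci of the symbol list held 2.31% and 2.70% of total FPKM in HN and 1.01% and 1.13% in LN. Ribosomal protein genes outside the list are not counted. The part of histones and ribosomal proteins in the shifts of the abundant loci was not tested.

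By position, the 65 loci lay on all 10 chromosomes, with 9 each on chromosomes 1, 2, 3 and 5 and 2 on chromosome 9. Their median span was 2369 bp, shorter than the 3536 bp of all loci and the 4099 bp of the tested ones, and 63.1% spanned 1000 to 4000 bp against 40.1% of the tested loci. Span in the genome includes introns and is not transcript length.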

How the data were processed

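RNA-seq of the leaf 6 elongation zone gave 2 HN and 2 LN libraries. The deposited table holds FPKM per locus and library, and for LN against HN the authors' own log2 fold change, q-value and p-value, per the file headers. TopHat2, edgeR and the build B73 RefGen_v3 are named in the submitters' processing notes without versions, and the assembler, length model and strand setting are not given in the sources used here. Rows that repeat a locus (31324 rows for 30378 loci) were merged. Names came from the deposited table or from RefSeq (assembly Zm-B73-REFERENCE-NAM-5.0, names only). Of the 65 members, 48 matched 1 RefSeq gene, 2 several and 15 none.

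Shares, ranks (1 is the highest FPKM) and ratios were computed per library with Python 3.11.15 and pandas 2.3.3. The contrast was fitted with limma 3.58.1 (trend, R 4.3.3) on log2(FPKM + 1), a scale that understates changes of weakly expressed loci. The script was tested on simulated data. The values are FPKM, so the branch of the design for normalized values applied and no count test was run. Alternatives were pseudocount 0.1, no filter or 5 FPKM, quantile normalization, rescaling to 1000000, limits of 250 and 1000 FPKM, and leaving out each library. The members, gene lists and ratios were chosen with earlier results of these data known.

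Named loci were the most abundant named ones, the 5 highest unnamed, the 8 largest rank moves each way, the 5 nearest the limit on either side, and the 4 most abundant of each symbol list. The 4 loci with higher FPKM in both LN libraries, and the non-member loci named as passing within a list, were chosen after their values were seen. The values of 1 named member, which counts in all totals, are not reported here.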

Additional observations from a re-analysis of the deposited data

How the results depend on the processing

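Pseudocount and filter changed no call, count or direction beyond 1.5 times. Quantile normalization called 10 abundant loci higher and 4 lower and gave a median change of 0.31, and rescaling to 1000000 called 3 and 4, where FPKM as deposited called 0. These group medians became, under quantile normalization and rescaling in turn, -0.37 and -0.35 for sucrose and glycolysis, -1.03 and -1.13 for photosynthesis and 0.37 and 0.72 for the cell wall list, and 0.52 for the cytoskeleton under quantile normalization. TUBA2 turned from -0.08 to 0.25 and 0.39 under these scalings. Leaving out 1 library each gave 0 to 1 higher and 0 to 24 lower calls, a median change of the abundant loci from -0.69 to 0.01, list medians from -1.10 to -0.53 for sucrose and glycolysis and 0.22 to 0.46 for the cell wall list, and changes from -0.30 to 0.14 for TUBA2, -0.19 to 0.77 for PIP1-1, -0.20 to 0.64 for PIP1-2, -0.33 to 0.58 for PIP2-1, -0.20 to 0.44 for NIP1-1 and -0.034 to 0.80 for AC195331.3_FG008. With 1 library left in a group, that library is assumed to vary like the other group. The number of abundant loci was 202 at 250 FPKM, 21 at 1000 FPKM and 120 at 500 after rescaling to 1000000. Their mean share in HN and LN was 26.7% and 25.2% at 250 FPKM, 11.1% and 11.3% at 1000 FPKM, 18.3% and 19.2% of the total over named loci, and 12.5% in both without loci under 300 bp, an alternative chosen after seeing the data, as were the medians under other settings. The cause of these shifts was not tested. No paired analysis was possible because the HN columns carry no replicate number of their own. Depth limits these results in that its absolute value is unknown and its relative value differs between the groups, and 2 libraries per group limit every test.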

Other observations

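Abundant loci without a gene model name stood outside the 65. Of these, 19 had 500 FPKM or more in every library, with a median span of 355 bp, and held 4.5%, 5.16%, 4.77% and 5.28% of total FPKM in HN1, HN2, LN1 and LN2. The highest were 2 loci listed at the same coordinates (chromosome 10, 144524202 to 144525441), with 6456, 13516, 7892 and 8360 FPKM and with 4177, 8373, 5136 and 5102 FPKM. How reads were divided between them was not analysed here.

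Past the limit in LN alone, 2 loci were listed at 0 in HN2. GRMZM5G873249 (chromosome 8, 125826062 to 125974101) had 4397 FPKM in HN1, 3468 in LN1 and 4853 in LN2, and GRMZM5G846071 had 856, 668 and 755. A value of 0 in a file without counts can be a failed estimate, so no fold change is given.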
